A study of Mus musculus with 10 samples.

Results

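Glycolysis, pyruvate entry into mitochondria, the tricarboxylic acid (TCA) cycle and the mitochondrial shuttles were followed through 46 genes in pancreatic islets of mice on a western diet and on standard chow. The 46 were taken by gene symbol from the deposited table of 27665 genes, as enzymes and carriers that couple nutrients to hormone secretion. All 46 were found, and all 46 were among the 15104 genes with enough reads to be tested. The western diet group held 5 male C57BL/6J mice, a common inbred strain, and the standard chow group held 5 more. All were 8 to 10 weeks old and had been on their diet for 4 weeks, and their islets were processed directly after isolation. The labels name no transgene or drug for either group. The labels place the western diet mice in cage 4 (mice 1, 2, 4 and 5) and cage 2 (mouse 5), and the chow mice in cage 3 (mice 1 to 5). No cage held both diets, so a difference between diets cannot be told apart from a difference between cages. Each mouse gave 1 RNA-seq library, and nothing in the labels says that a library was pooled.

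Glycolysis splits glucose into pyruvate in the cytosol and yields ATP and NADH. Beta cells, the insulin-secreting cells that make up most of an islet, export little of that pyruvate as lactate. They pass pyruvate into mitochondria either through pyruvate dehydrogenase, to be oxidised in the TCA cycle, or through pyruvate carboxylase, which refills the cycle and lets citrate, isocitrate and malate leave for the cytosol. Cytosolic NADH reaches the respiratory chain through the glycerol phosphate shuttle and the malate-aspartate shuttle, and the ATP and exported metabolites that follow are known signals for insulin release.

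Total counts were 16532518 to 23902681 reads per library, and the 46 genes together took 0.440% to 0.465% of the counts. Beta cell markers summed to 238917 to 273809 CPM (counts scaled to a common library size) on western diet and 229603 to 265360 CPM on chow, and none of the 8 was at 0. That sum is mostly insulin transcripts. Of the 8, edgeR called Iapp higher (adjusted p = 0.0193) and Slc30a8 (0.00452) and Slc2a2 (0.00748) lower. Alpha cell markers, mostly Gcg transcripts, summed to 9955 to 13754 CPM on western diet and 10504 to 15615 CPM on chow. Of the 5, edgeR called Ttr higher (adjusted p = 0.0302). Acinar markers, from the exocrine tissue around islets, ranged from 823 to 5957 CPM on western diet and from 713 to 2955 CPM on chow, and 0 of the 10 tested were called by edgeR, 0 of them at an unadjusted p under 0.05. The sum of the endothelial markers was lower on western diet, narrowly without overlap, at 343 to 399.6 CPM against 400.9 to 445 CPM on chow. Of the 7 markers 1, Kdr, was called lower, and 2, Plvap and Tie1, had positive log2 fold changes, 0.05 and 0.03. Pecam1 and Esam each had -0.05, with edgeR adjusted p of 0.738 and 0.776. Cdh5 and Flt1 had -0.29 and -0.15, with edgeR adjusted p of 0.0565 and 0.0531, and the libraries of Flt1 did not overlap. In all, 3 of the 7 had an unadjusted p under 0.05 by edgeR, each on the lower side. Duct markers summed to 285 to 303 CPM on western diet and 283 to 309 CPM on chow, and 2 of the 6 tested were lower, Krt19 at 0.570 ± 0.307 CPM on western diet and 3.58 ± 1.87 CPM on chow (edgeR adjusted p = 0.000737) and Muc1 (0.0305). Of 8 macrophage and leukocyte markers C1qa was called lower, at 0.702 of its chow level (edgeR adjusted p = 0.000707), and of 7 fibroblast and pericyte markers tested Pdgfrb, at 0.738 (0.0119). The largest shift among the lists examined was in 14 immediate early and heat shock genes, which summed to 9165 to 11341 CPM on western diet and 16427 to 20530 CPM on chow, with 13 called lower. Transcripts of the mitochondrial genome summed to 11090 to 16574 CPM on western diet and 11938 to 16326 CPM on chow, and edgeR called 0 of the 12 tested, 0 of them at an unadjusted p under 0.05. With the acinar marker mean as a covariate, edgeR called as many members in each direction as without it, and the log2 fold change of Gpd2 was again -0.58. The part of the other lists in the results on the 46 genes was not tested. In bulk islets, fewer cells of a type and less RNA per cell cannot be told apart.

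A few members moved by modest amounts, in both directions. Gpd2, the mitochondrial enzyme of the glycerol phosphate shuttle, fell the most, to 0.667 of its chow level. Idh2, the mitochondrial NADP-dependent isocitrate dehydrogenase, and Pfkfb2, which makes and removes the phosphofructokinase activator fructose 2,6-bisphosphate, fell as well. Mdh1, the cytosolic malate dehydrogenase of the malate-aspartate shuttle, rose, and so did the glycolytic enzyme genes Pgk1, Pgam1 and Aldoa. The remaining 39 members did not pass the test.

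Calls came from edgeR's quasi-likelihood test over all 15104 genes with Benjamini-Hochberg adjustment, at an adjusted p under 0.05, and fold changes are western diet over chow. Among all tested genes 10.8% were called, 5.27% higher and 5.5% lower on western diet. Of the 46 members 7 were called, or 15.2%, with 4 higher (8.70%) and 3 lower (6.52%). These shares are near the background, so the count itself is no result about the members. The median log2 fold change of the members was 0.03, against 0.005 over all genes tested. Among the members 31 of 46 had a positive log2 fold change (67.4%, against 51.0% of all genes tested), and 17 had an unadjusted p under 0.05 (37.0%, against 26.9% of all genes), 12 of them higher and 5 lower. Separation of the libraries was a different description, which need not go with a call. All 5 western diet libraries lay above all 5 chow libraries in 4.44% of tested genes and in 2 members, Mdh1 and Aldoa, and below them in 4.42% of tested genes and in 3 members, Gpd2, Idh2 and Pcx. Median size of the change was 0.31 on the log2 scale for called genes of the whole table, which Gpd2 exceeded and the other 6 called members did not reach. The authors' deposited table, from their own comparison, called the same 7 members in the same directions and added Pcx on the lower side. That comparison used the same 10 libraries, so it is no independent check of these calls.

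**Figure D1:**
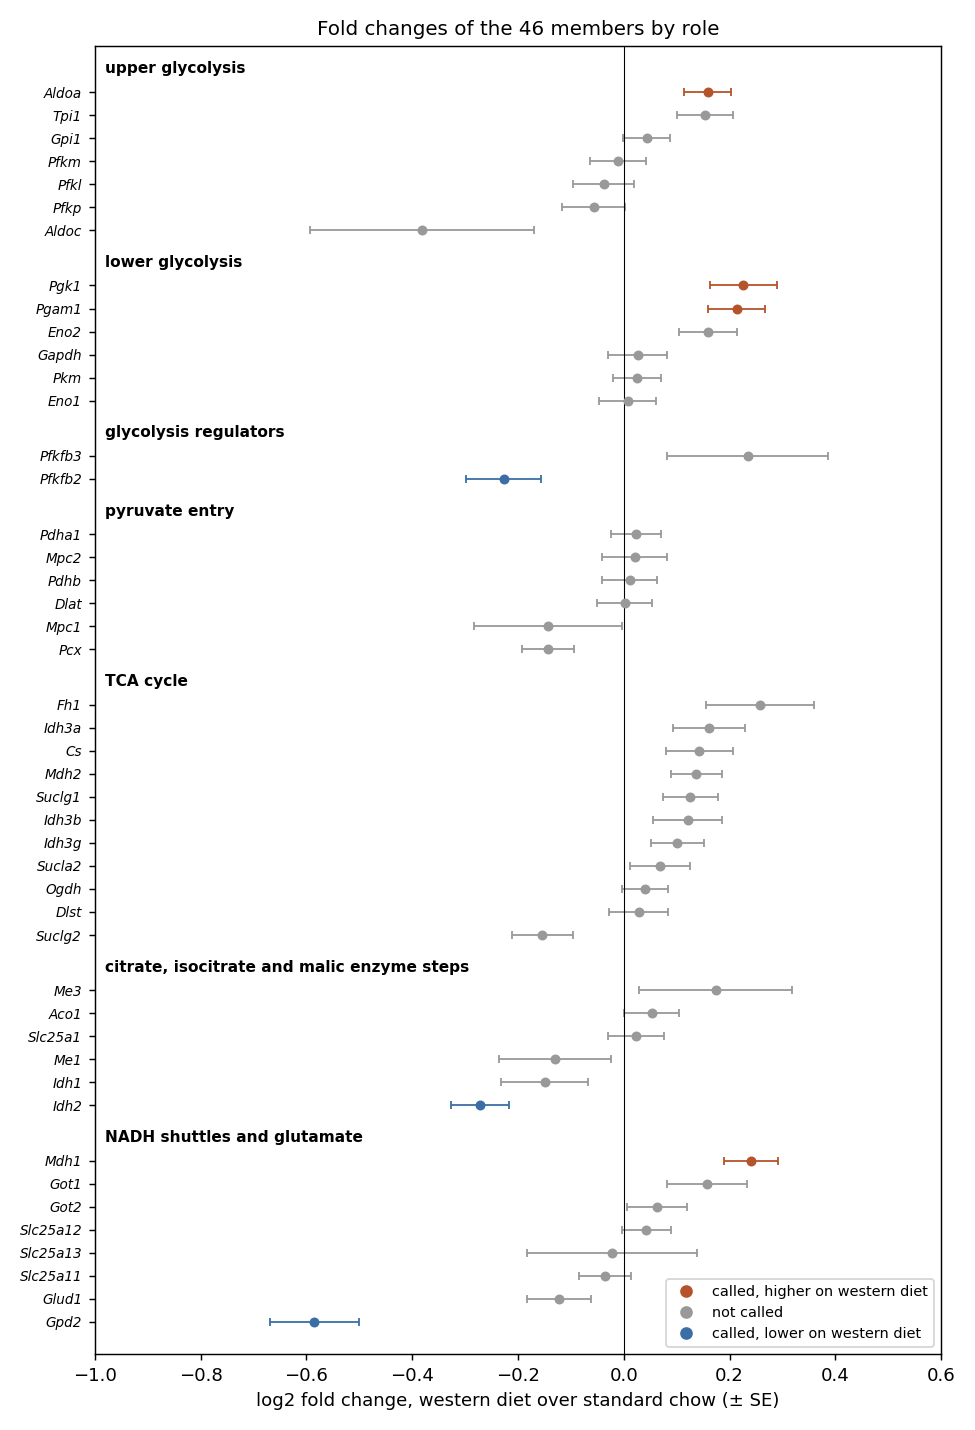
Log2 fold change of western diet over standard chow for each of the 46 genes, grouped by role, with its standard error as a bar; 0 means no difference. Gpd2 lies farthest to the left at -0.58, and 10 of the 11 TCA cycle genes lie to the right of 0 without being called.

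Levels set the scale of each step. The authors' deposited FPKM divide by a gene length taken over all annotated exons, not by the length of 1 transcript. The order of genes therefore depends on that length. By CPM, Pkm (626 on western diet, 615 on chow) stood above Aldoa (434 and 389). In FPKM, Aldoa was the most abundant member at 149 ± 5.09 FPKM on western diet and 134 ± 5.20 FPKM on chow (SD, n = 5 each). Pkm, a pyruvate kinase, followed at 125 ± 5.92 FPKM on western diet and 123 ± 2.70 FPKM on chow. Next came Gapdh, at 85.0 ± 6.96 FPKM on western diet and 83.6 ± 3.35 FPKM on chow, and Mdh1, at 80.8 ± 2.52 FPKM on western diet and 68.5 ± 4.80 FPKM on chow. From Idh2 in the fifth place to Pcx in the tenth, mean levels over all libraries ran from 47.1 to 36.0 FPKM. Pgam1, Slc25a1 and Pgk1 among them, at 41.8, 41.7 and 41.3 FPKM, did not differ beyond their SDs. At the low end were Me3, at 0.340 ± 0.0556 FPKM on western diet and 0.302 ± 0.0239 FPKM on chow, then Pfkfb3 and Slc25a13. Gpd2 ranked 25th of the 46 by its mean over all libraries, at 11.5 ± 1.47 FPKM on western diet and 17.3 ± 1.62 FPKM on chow.

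**Figure D2:**
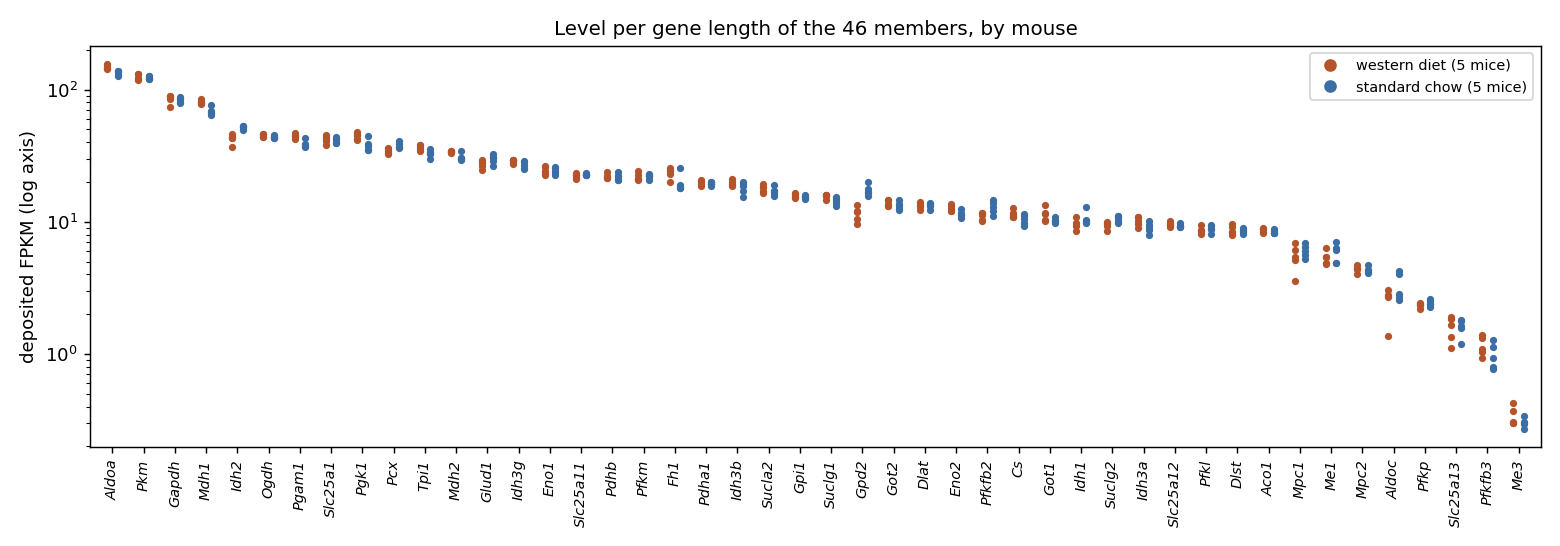
Deposited FPKM of each of the 46 genes in each mouse on a log axis, ordered by mean level, with western diet to the left of standard chow within each gene. Levels run from about 149 FPKM for Aldoa on western diet to below 1 FPKM for Me3, and the diets differ far less than the genes do.

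Among the 7 genes of upper glycolysis 1 rose and 6 did not pass, with a median log2 fold change of -0.01. Aldoa (ENSMUSG00000030695, GRCm38 chromosome 7, 126795234 to 126800751, minus strand) is the main aldolase, which splits fructose 1,6-bisphosphate. It had 453, 443, 421, 428 and 426 CPM on western diet (cage 4 mice 1, 2, 5 and 4, then cage 2 mouse 5), against 371, 402, 376, 403 and 393 CPM on chow (cage 3 mice 1 to 5). All western diet libraries lay above all chow libraries. The log2 fold change was 0.16 ± 0.04 (SE), with an edgeR adjusted p of 0.0305. This call was lost when any one of western diet cage 4 mice 1, 2 or 4 or chow mice 1, 3 or 5 was left out, with adjusted p from 0.0509 to 0.101. The symbol Aldoa has a second row in the table, with 5 to 25 reads per library, and its edgeR adjusted p was 0.365.

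The partner isozyme Aldoc is a low-level aldolase here. It had 4.46, 9.84, 9.09, 8.75 and 9.13 CPM on western diet, against 13.9, 8.28, 9.32, 8.83 and 13.1 CPM on chow. Western diet cage 4 mouse 1 was the lowest and chow mice 1 and 5 the highest, and the groups overlapped. Its log2 fold change of -0.38 ± 0.21 had an edgeR adjusted p of 0.277. Aldoa made up 98.3% ± 0.452 of the summed aldolase FPKM on western diet and 97.6% ± 0.631 on chow. Phosphofructokinase catalyses the committed step of glycolysis. The muscle-type Pfkm took 66.5% ± 2.07 of the summed FPKM of its 3 genes on western diet and 66.1% ± 0.767 on chow. The liver-type Pfkl gave 26.3% ± 1.65 on western diet and 26.6% ± 0.791 on chow, and the platelet-type Pfkp the rest. These shares depend on gene lengths of 3340 bases for Pfkm, 6675 for Pfkl and 13401 for Pfkp. In CPM, Pfkm, Pfkl and Pfkp had 73.3, 57.9 and 31.4 on western diet, against 73.9, 59.3 and 32.6 on chow. None of the 3 passed the test. Tpi1, which interconverts the triose phosphates, had a log2 fold change of 0.15 ± 0.05 and an edgeR adjusted p of 0.0694, and Gpi1, the glucose phosphate isomerase, 0.04 ± 0.04 and 0.574.

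Lower glycolysis, from glyceraldehyde phosphate to pyruvate, had 2 genes that rose and 4 that did not pass, and all 6 fold changes were positive, with a median of 0.09. Pgk1 (ENSMUSG00000062070) makes ATP from 1,3-bisphosphoglycerate, and Pgam1 (ENSMUSG00000011752) handles the next step. Both have a single start in RefSeq, so their upstream sequence can be shown without a choice between starts. The 250 bases before that start are given 5′ to 3′ on the gene's plus strand, from RefSeq on GRCm38.p6. Pgk1 is at chrX:106186850-106187099 and Pgam1 at chr19:41911621-41911870, with capitals marking ACGTG or its reverse complement CACGT:
Pgk1: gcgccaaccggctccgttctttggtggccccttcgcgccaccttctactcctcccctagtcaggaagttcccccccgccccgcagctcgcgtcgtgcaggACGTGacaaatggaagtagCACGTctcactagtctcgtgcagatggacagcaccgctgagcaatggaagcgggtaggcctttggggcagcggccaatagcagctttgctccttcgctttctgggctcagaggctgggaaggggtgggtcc
Pgam1: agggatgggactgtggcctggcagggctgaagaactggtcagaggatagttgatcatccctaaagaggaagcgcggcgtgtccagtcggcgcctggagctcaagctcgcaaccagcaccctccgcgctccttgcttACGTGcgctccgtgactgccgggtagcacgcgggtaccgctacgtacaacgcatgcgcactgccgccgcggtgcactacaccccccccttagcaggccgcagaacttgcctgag

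ACGTG is the core of the sites that hypoxia-inducible factors bind, and it is also contained in the E-box CACGTG. In windows from 250 bases before to 50 after each RefSeq start, read on both strands, at least 1 ACGTG stood in 21.8% of the 27025 genes with a window and in 18 of the 45 members with one (40.0%). Of the 7 called members 6 had it at 1 or more of their starts, Idh2 being the exception. For Gpd2, Pfkfb2 and Aldoa, which have several RefSeq starts, other windows of the same gene lacked it. CACGTG itself was in 8.09% of genes and in 7 of the 45 members (15.6%). The shares over all genes include genes with too few reads to be tested. They were not matched to the members for level or for number of starts, so no enrichment can be read from them. Such matches are letters in a window and say nothing here of what binds there.

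Pgk1 had 102.2, 101.4, 96.0, 107.1 and 93.7 CPM on western diet, against 78.8, 100.03, 78.0, 86.3 and 84.7 CPM on chow. Only chow mouse 2 reached the western diet range. The log2 fold change was 0.23 ± 0.06, with an edgeR adjusted p of 0.0294. That call was lost without any one of western diet cage 4 mice 1, 2 or 4 or chow mice 1, 3, 4 or 5, with adjusted p from 0.0529 to 0.0913.

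Pgam1 had 77.4, 81.4, 87.2, 83.3 and 81.7 CPM on western diet, against 68.2, 78.9, 67.3, 70.5 and 69.5 CPM on chow. Chow mouse 2 was again the highest chow library and the one that overlapped. Its log2 fold change was 0.21 ± 0.05 and its edgeR adjusted p 0.0156, and leaving out chow mouse 3 gave 0.053. Eno2, the neuron-type enolase, had 0.16 ± 0.06 and an edgeR adjusted p of 0.0709, while Eno1, the widely expressed enolase, had 0.01 ± 0.05 and 0.945. Eno1 made up 65.7% ± 1.66 of the summed enolase FPKM on western diet and 68.0% ± 1.98 on chow.

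Pkm, the last enzyme of the path, had 602, 658, 619.5, 597 and 654 CPM on western diet, against 613, 628, 605, 601 and 630.3 CPM on chow. The groups overlapped, with a log2 fold change of 0.03 ± 0.04 and an edgeR adjusted p of 0.77. Gapdh likewise had 0.03 ± 0.06 and 0.811, so 2 of the 3 most abundant glycolytic members showed no detectable difference at this depth while Aldoa did.

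The regulator pair sets the level of fructose 2,6-bisphosphate. Pfkfb2 (ENSMUSG00000026409, GRCm38 chromosome 1, 130689182 to 130729253, minus strand) had 81.3, 74.5, 85.5, 74.0 and 84.9 CPM on western diet, against 107, 86.8, 100.2, 80.3 and 94.4 CPM on chow. Chow mouse 4 lay inside the western diet range, so the groups overlapped. With a log2 fold change of -0.23 ± 0.07 and an edgeR adjusted p of 0.0472, it was the weakest of the 7 calls. Leaving out any western diet mouse of cage 4, or chow mouse 1, 3 or 5, ended the call, with adjusted p from 0.0568 to 0.111, and limma-voom gave 0.0546.

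Pfkfb3, the more kinase-biased isozyme, had 10.5, 6.996, 8.37, 10.04 and 7.79 CPM on western diet, against 7.02, 5.76, 6.00, 8.59 and 9.70 CPM on chow. The values overlapped broadly, and a log2 fold change of 0.23 ± 0.15 had an edgeR adjusted p of 0.346. Pfkfb2 took 90.5% ± 1.63 of the pair's summed FPKM on western diet and 92.9% ± 1.85 on chow.

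Pyruvate entry had 0 of 6 genes called by edgeR, with 1 at an unadjusted p under 0.05, while DESeq2 called 1 lower and limma-voom 0. That gene was Pcx (ENSMUSG00000024892, chromosome 19, 4510472 to 4621752, plus strand), pyruvate carboxylase. It had 153, 164, 160.4, 150.2 and 166 CPM on western diet, against 171, 188, 170.5, 180.1 and 167 CPM on chow. All western diet libraries lay below all chow libraries, the closest values being 166 CPM in western diet cage 2 mouse 5 and 167 CPM in chow mouse 5. The log2 fold change was -0.14 ± 0.05, with an adjusted p of 0.067 by edgeR and 0.035 by DESeq2. It was 0.0394 in the authors' deposited table, which rests on the same libraries. None of the 10 edgeR fits that left out 1 mouse called Pcx, with adjusted p from 0.0537 to 0.142. The pyruvate dehydrogenase genes Pdha1, Pdhb and Dlat had log2 fold changes of 0.02 ± 0.05, 0.01 ± 0.05 and 0.002 ± 0.05. Those of the mitochondrial pyruvate carrier subunits were -0.14 ± 0.14 for Mpc1 and 0.02 ± 0.06 for Mpc2. Pdha1 shares 603 exon bases with Map3k15 on the other strand, a gene with more reads than Pdha1, and whether counting used strand is not known.

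The TCA cycle had 11 genes, of which edgeR called 0, with 6 at an unadjusted p under 0.05, 5 of them higher and 1 lower. DESeq2 called 1 higher, Mdh2, and limma-voom 0. Fold changes were positive in 10 of the 11, with a median of 0.12 on the log2 scale. In each mouse the median deviation of the 11 genes from the chow mean was 0.10, 0.11, 0.12, 0.08 and 0.12 log2 units on western diet, against -0.11, 0.09, -0.07, 0.02 and 0.02 on chow. Chow mouse 2 alone reached into the western diet range, above cage 4 mouse 4.

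The largest fold change of the cycle was that of Fh1 (ENSMUSG00000026526), fumarate hydratase. It had 68.0, 78.0, 85.0, 82.3 and 86.8 CPM on western diet, against 60.9, 86.6, 60.6, 64.0 and 62.3 CPM on chow. Of the chow libraries 4 lay below every western diet library, and chow mouse 2 stood at their upper end. The log2 fold change of 0.26 ± 0.10 had an edgeR adjusted p of 0.125, and without chow mouse 2 it was 0.37 with an adjusted p of 0.00269. Of the 10 fits that left out 1 mouse, only that 1 called Fh1, and the largest edgeR adjusted p was 0.28.

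Mdh2, the mitochondrial malate dehydrogenase, showed the same arrangement, with 119 to 123 CPM on western diet, and with 104 to 108 CPM in 4 chow mice and 122 CPM in chow mouse 2. Its log2 fold change was 0.14 ± 0.05, with an adjusted p of 0.0761 by edgeR and 0.0463 by DESeq2, and 0.0187 by edgeR without chow mouse 2. Here too only that 1 of the 10 fits leaving out 1 mouse gave a call, and the largest edgeR adjusted p was 0.201. Citrate synthase (Cs) had 0.14 ± 0.06 and an edgeR adjusted p of 0.155. The 3 subunits of the NAD-dependent isocitrate dehydrogenase had 0.16 ± 0.07 for Idh3a, 0.12 ± 0.06 for Idh3b and 0.10 ± 0.05 for Idh3g, with edgeR adjusted p of 0.133 to 0.239.

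Ogdh, part of the oxoglutarate dehydrogenase complex, was the most abundant gene of the cycle by FPKM. It had 238, 238, 256, 249.4 and 254 CPM on western diet, against 234, 248, 239.9, 237 and 242 CPM on chow. The libraries overlapped, with a log2 fold change of 0.04 ± 0.04 and an edgeR adjusted p of 0.599. In succinyl-CoA ligase no gene passed. The ADP-forming subunit gene Sucla2 had a log2 fold change of 0.07 ± 0.06, the GDP-forming Suclg2 -0.15 ± 0.06 and the shared subunit gene Suclg1 0.13 ± 0.05, with edgeR adjusted p of 0.472, 0.0914 and 0.126. Sucla2 took 65.4% ± 1.55 of the summed Sucla2 and Suclg2 FPKM on western diet and 61.9% ± 0.897 on chow, without overlap (63.24% to 67.2% on western diet, 60.8% to 63.21% on chow). No test was run on this share.

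**Figure D3:**
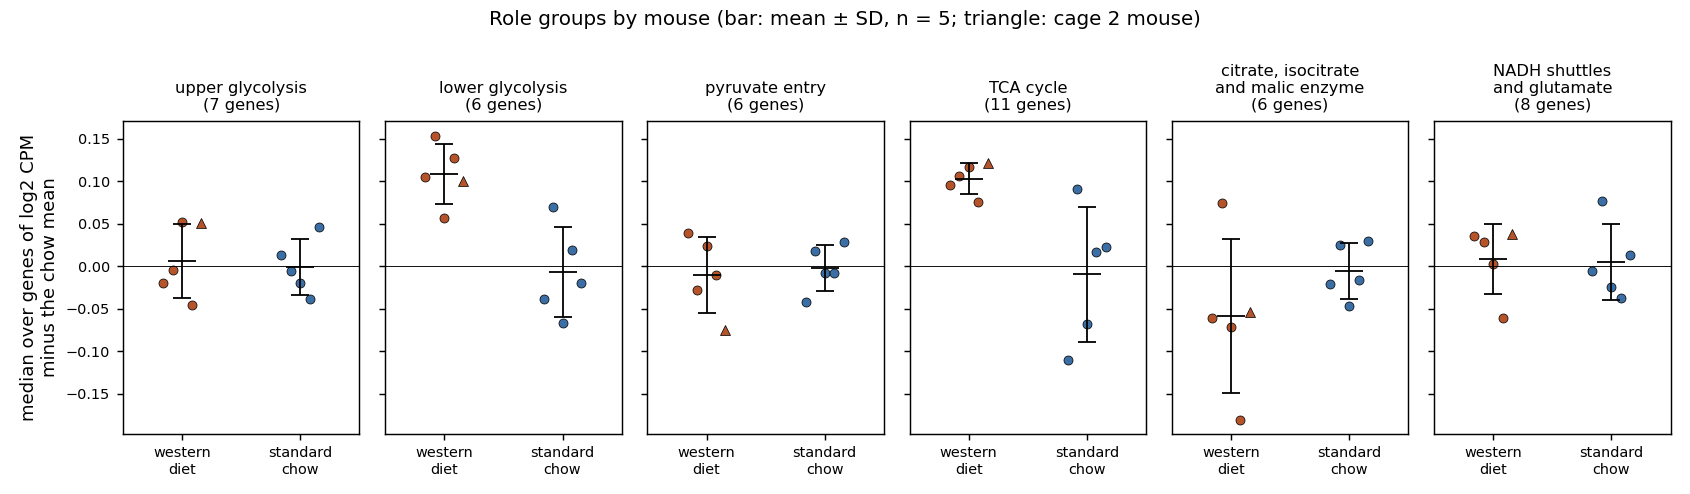
For each mouse, the median over the genes of a role of log2 CPM minus the chow mean, with mean ± SD as bars (n = 5 per diet), western diet at left and chow at right; the triangle is the cage 2 mouse. The pair of regulators is not drawn. In the TCA cycle panel the western diet mice sit at 0.08 to 0.12 and chow mouse 2, at 0.09, is the only chow mouse inside that range.

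The genes of the citrate, isocitrate and malic enzyme steps, which take citrate and isocitrate out of the cycle and make NADPH from isocitrate and malate, had 1 that fell and 5 that did not pass, with a median log2 fold change of -0.05. Idh2 (ENSMUSG00000030541, GRCm38 chromosome 7, 80094846 to 80115392, minus strand) had 113, 119, 112, 96.0 and 112 CPM on western diet, against 136, 137, 135, 128 and 129 CPM on chow. All western diet libraries lay below all chow libraries, with cage 4 mouse 4 the lowest. The log2 fold change was -0.27 ± 0.05 and the edgeR adjusted p 0.00485, and the call held in all 20 alternatives, at 0.0154 at most. The cytosolic Idh1 had -0.15 ± 0.08 and an edgeR adjusted p of 0.257. Idh2 made up 81.7% ± 0.638 of the summed FPKM of both genes on western diet and 83.0% ± 1.95 on chow.

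The mitochondrial citrate carrier gene Slc25a1 had a log2 fold change of 0.02 ± 0.05 and the cytosolic aconitase Aco1 0.05 ± 0.05. Me1, the cytosolic malic enzyme, had -0.13 ± 0.11, and the mitochondrial Me3 0.17 ± 0.14. None of these 4 passed the test, with edgeR adjusted p of 0.464 to 0.826.

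The shuttle and glutamate genes held the called members with the largest change on each side, with 1 that rose, 1 that fell and 6 that did not pass. Gpd2 (ENSMUSG00000026827, GRCm38 chromosome 2, 57237635 to 57370719, plus strand) feeds electrons of cytosolic glycerol 3-phosphate into the respiratory chain. It had 68.2, 79.2, 77.8, 63.6 and 87.9 CPM on western diet, against 109.7, 129.9, 102.6, 107.3 and 115 CPM on chow. The groups were apart, the highest western diet library being that of cage 2 mouse 5. The mean was 75.4 ± 9.57 CPM on western diet and 113 ± 10.6 CPM on chow (SD, n = 5 each), a log2 fold change of -0.58 ± 0.08 with an edgeR adjusted p of 0.000996. In 20 alternatives the log2 fold change stayed between -0.66 and -0.53 and the adjusted p at 0.00406 or below. Gpd2 shares 487 exon bases with the antisense transcript A930012O16Rik, which had a mean of 34 reads per library against 1849.5 for Gpd2. The cytosolic partner of the shuttle, Gpd1, which is not among the 46, had 25.4 ± 3.07 CPM on western diet and 23.7 ± 2.14 CPM on chow, with an edgeR adjusted p of 0.528.

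Mdh1 (ENSMUSG00000020321, GRCm38 chromosome 11, 21556787 to 21572367, minus strand) turns cytosolic oxaloacetate and NADH into malate. It had 209, 207, 202, 218 and 203 CPM on western diet, against 164, 196, 178, 169.5 and 172 CPM on chow. All western diet libraries lay above all chow libraries, and chow mouse 2 was the highest of chow. The mean was 208 ± 6.27 CPM on western diet and 176 ± 12.1 CPM on chow, with a log2 fold change of 0.24 ± 0.05 and an edgeR adjusted p of 0.0066, and the call held in all 20 alternatives, at 0.0272 at most. The ratio of Mdh1 to Gpd2 in FPKM, chosen after both values were seen and not tested, was 7.80, 6.66, 6.63, 8.74 and 5.90 on western diet, against 3.82, 3.84, 4.43, 4.03 and 3.79 on chow.

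The other genes of the malate-aspartate shuttle did not pass. The aspartate aminotransferases had log2 fold changes of 0.16 ± 0.08 for the cytosolic Got1 and 0.06 ± 0.06 for the mitochondrial Got2, with edgeR adjusted p of 0.186 and 0.507. The oxoglutarate-malate carrier Slc25a11 had -0.04 ± 0.05, and the aspartate-glutamate carriers 0.04 ± 0.05 for Slc25a12 and -0.02 ± 0.16 for Slc25a13. Slc25a12 made up 86.1% ± 2.51 of the summed FPKM of both carrier genes on western diet and 85.4% ± 2.21 on chow. Glud1, glutamate dehydrogenase, had -0.12 ± 0.06 and an edgeR adjusted p of 0.199.

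**Figure D4:**
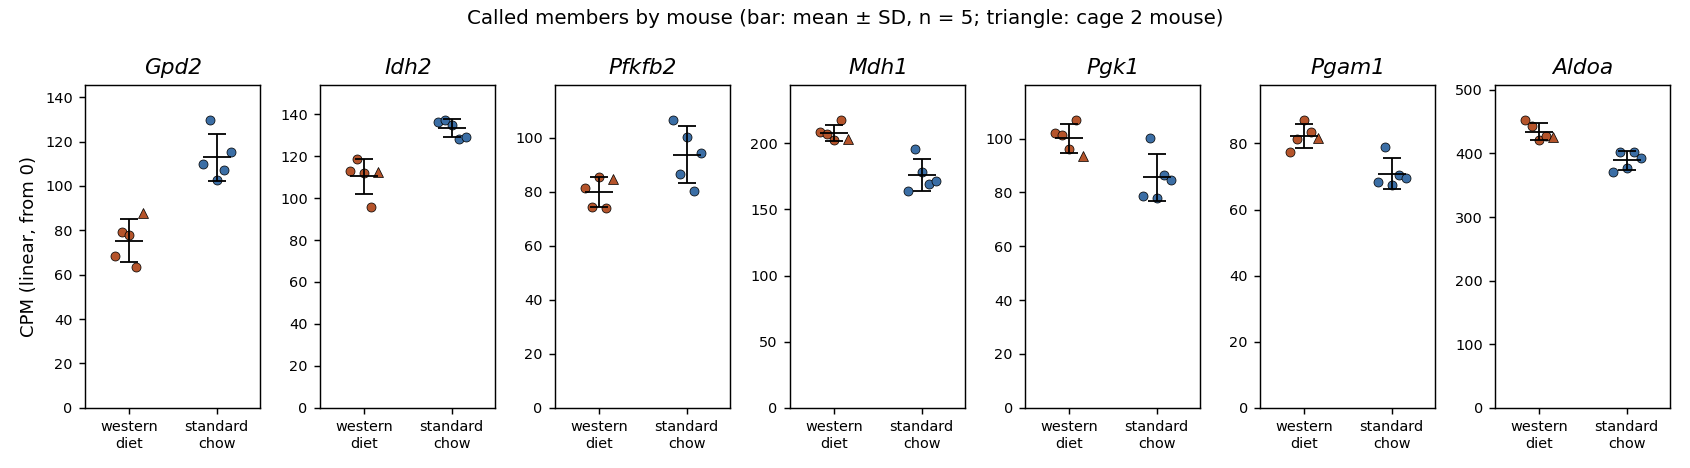
CPM of the 7 called genes in each mouse, western diet at left and standard chow at right in each panel, with mean ± SD as bars (n = 5 per diet) and the cage 2 mouse as a triangle; each panel has its own linear axis from 0. Gpd2 and Idh2 lie lower and Mdh1 and Aldoa higher on western diet with no overlap, while Pfkfb2, Pgk1 and Pgam1 overlap.

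Other genes of the same pathways were read from a list of 54. Of these 47 were tested, 2 rose, 4 fell and 41 did not pass, so 12.8% were called, near the 10.8% of all genes tested. Their median log2 fold change was 0.03. Slc2a2, the glucose transporter of rodent beta cells, fell to 698 ± 105 CPM on western diet, against 1016 ± 98.5 CPM on chow, a log2 fold change of -0.54 ± 0.10 with an edgeR adjusted p of 0.00748. Pklr, the second pyruvate kinase gene, fell by 0.38 on the log2 scale (adjusted p = 0.00863), and Pdp1, a phosphatase that activates pyruvate dehydrogenase, by 0.30 (adjusted p = 0.0309). Gpt2, the mitochondrial alanine aminotransferase, rose by 0.51 (adjusted p = 0.00646), and Slc25a22, a mitochondrial glutamate carrier, by 0.27 (adjusted p = 0.0443). The related carrier gene Slc25a18 also fell, at 0.566 ± 0.254 CPM on western diet and 1.65 ± 0.752 CPM on chow (adjusted p = 0.0207), a level of few reads.

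The lactate dehydrogenase gene Ldha and the lactate carrier gene Slc16a1, both known for low expression in beta cells, stood at 7.48 ± 1.30 and 0.722 ± 0.441 CPM on western diet, against 7.32 ± 2.38 and 0.798 ± 0.333 CPM on chow. Neither passed the test, with edgeR adjusted p of 0.955 and 0.847.

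Because Pgk1, Pgam1 and Aldoa are known targets of hypoxia-inducible factors, a list of 18 other targets, from outside the pathway, was read beside them. Only these called genes were looked at in this way. The glycolytic genes that did not pass were not sorted by whether they are such targets. Among those, Gapdh, Pkm, Eno1 and Ldha had log2 fold changes of 0.01 to 0.03. Tpi1, Eno2 and Pfkfb3 had 0.15, 0.16 and 0.23, while Slc2a1, Pfkl and Aldoc had -0.05, -0.04 and -0.38. Of the 18 listed targets 16 were tested. Of these 1 rose and 1 fell (12.5%, near the 10.8% of all genes tested), with a median log2 fold change of 0.05. Fold changes were positive in 9 of the 16. The listed Vegfa had -0.11 ± 0.06 and an edgeR adjusted p of 0.244. At an unadjusted p under 0.05 there were 7, 4 higher and 3 lower (43.8%, against 26.9% of all genes tested). Loxl2, a lysyl oxidase of the matrix, had 26.9 ± 2.02 CPM on western diet and 22.0 ± 3.04 CPM on chow (edgeR adjusted p = 0.0391). Ndrg1, a stress-responsive gene, had 118 ± 15.1 CPM on western diet and 145 ± 12.7 CPM on chow (edgeR adjusted p = 0.0324). The other 3 on the higher side at an unadjusted p under 0.05 were Ero1l, P4ha2 and Bnip3, with log2 fold changes of 0.16 ± 0.06, 0.32 ± 0.12 and 0.15 ± 0.07 and edgeR adjusted p of 0.0908, 0.099 and 0.146, and the libraries of Ero1l did not overlap. On the lower side were also Egln3, with -0.85 ± 0.37, and Mxi1, with -0.16 ± 0.07, at edgeR adjusted p of 0.145 and 0.135.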

How the data were processed

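The authors deposited 1 table with whole-number read counts per gene, not normalized, for 10 libraries, 1 per mouse. The same deposited table holds the authors' FPKM values, which were checked to equal the count times 1 constant per library over gene length. The authors' diet comparison stands beside them in log2 fold changes and p-values, as deposited, and 88 genes have an empty deposited p-value. Per the labels' protocols, RNA came from an RNeasy micro kit and libraries from a NEBNext Ultra RNA kit. The submitters' processing notes list STAR 2.5, HTSeq 2, DESeq2 and mm10/GRCm38, without saying which step used which. Whether counting used strand is not given here, so reads of overlapping genes cannot be told apart, and 17 members share exon bases with another gene in GENCODE M21. A further 10 columns of normalized values per sample were not used.

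The test was edgeR 4.0.16 under R 4.3.3 (filterByExpr with a minimum count of 10, TMM factors, robust quasi-likelihood fit, diet as the only term), adjusted over all 15104 genes tested. The method was run on simulated data in which every planted change was larger than those of the called members other than Gpd2. It was therefore not tested at the size of their changes. SE is the size of the log2 fold change over the root of the F statistic. CPM use the TMM factors. The symbol Aldoa has 2 rows, and the one with most reads was used. Levels between genes and isozyme shares use deposited FPKM, with SD over mice, and both depend on the gene lengths that the FPKM divide by.

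The members and lists were chosen with earlier results of these data known. The text names every called member, the most abundant and the most changed member of each role, and up to 6 called genes of each other list by smallest p. Other genes are named as neighbours in the pathway, after their values were seen. The settings varied were the library factors (RLE, upper quartile), no filter, a mean of at least 5 CPM, DESeq2 1.42.0, limma-voom (limma 3.58.1), protein-coding genes only, an acinar marker covariate, a replicate block and leaving out each mouse. Leaving out 2 mice together, 1 per diet, was chosen after seeing the data.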

Additional observations from a re-analysis of the deposited data

Results flagged for a closer look

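In each diet the highest or lowest library of each member was set against the others, and 9 of 92 groups of 5 had a library standing far from the rest, where chance flags about 1 in 20. Chow mouse 2 was the highest chow library in 3 of them. It had 78.9 CPM of Pgam1, with the next chow library at 70.5 CPM, 86.6 CPM of Fh1, with the next at 64.0 CPM, and 121.9 CPM of Mdh2, with the next at 108 CPM. Chow mouse 5 was highest for Mpc2, at 34.7 CPM with the next at 31.5 CPM, and for Idh1, at 35.6 CPM with the next at 28.7 CPM.

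On western diet the cage 2 mouse was lowest for Pfkp, at 29.1 CPM with the next at 31.5 CPM, and for Suclg1, at 66.9 CPM with the next at 72.6 CPM. Cage 4 mouse 1 was lowest for Aldoc, at 4.46 CPM with the next at 8.75 CPM. Cage 4 mouse 4 was lowest for Idh2, at 96.0 CPM with the next at 112 CPM.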

How the results depend on the processing

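Of the 7 called members, Gpd2, Idh2 and Mdh1 kept their direction and their call in all 20 alternatives, 10 of which left out 1 mouse. The count of members higher was 4, and it was 2 with the replicate block and 2 when chow mouse 1 and the cage 2 mouse were left out together. Leaving out 1 mouse gave 1 to 6: 1 without chow mouse 3, 6 without chow mouse 2, and 2 without any one of western diet cage 4 mice 1, 2 or 4 or chow mice 1 or 5. The count of members lower was 3, and it was 5 with a mean of at least 5 CPM, where Pcx (adjusted p = 0.0314) and Suclg2 (0.0494) were added, and 2 to 3 when 1 mouse was left out. Over all genes, 796 were higher and 831 lower. The replicate block gave 342 higher and 499 lower, and leaving out 1 mouse gave 376 to 921 higher, lowest without chow mouse 1, and 562 to 892 lower. Without western diet cage 4 mouse 5, cage 4 mouse 4 or chow mouse 3 the higher count was 476, 400 and 431.

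The replicate block used mouse numbers, which do not pair the mice: same-numbered mice of different diets had correlated deviations of -0.129 to 0.0483. With it, Aldoa (adjusted p = 0.128), Pgk1 (0.0659), Pgam1 (0.0732) and Pfkfb2 (0.0506) lost their calls, and Eno2 gained one (0.0491). Tpi1 gained one without chow mouse 4 (0.0484). With both mice left out, Aldoa (0.0863), Pgk1 (0.0503) and Pfkfb2 (0.0872) were not called.

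Log2 fold changes that changed sign all lay near 0 and none of these genes was called. Leaving out the cage 2 mouse and chow mouse 1 together gave 0.0085 for Pfkl, -0.013 for Eno1, -0.0035 for Pdhb, -0.0051 for Dlst and -0.0057 for Slc25a1. Upper quartile factors gave -0.0043 for Eno1, -0.0011 for Pdhb and -0.011 for Dlat. A mean of at least 5 CPM gave -0.0089 for Eno1, -0.0055 for Pdhb and -0.015 for Dlat. Protein-coding genes only gave -0.0014 for Eno1 and -0.0073 for Dlat. Dlat was -0.0029 with RLE factors and -0.00069 with limma-voom. The replicate block gave -0.010 for Mpc2 and -0.0031 for Slc25a1. Leaving out 1 mouse gave -0.029 to 0.031 for Dlat, -0.0087 to 0.052 for Dlst, -0.024 to 0.031 for Eno1, -0.0048 to 0.058 for Mpc2, -0.015 to 0.046 for Pdhb, -0.046 to 0.0094 for Pfkm, -0.0026 to 0.049 for Slc25a1 and -0.12 to 0.074 for Slc25a13. No scaling moved the median of all genes by more than 0.017. Recomputed FPKM left the order of the members as it was. The cause of these shifts was not tested.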
